A study of Danio rerio with 24 samples.

Results

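The oocyte-derived transcripts described here are those of 6 genes: zar1, zar1l, gdf9, bmp15, zp2.2 and zp3b. They were followed as 7 transcript clusters, the units in which the array reports signal, because zp2.2 has 2 clusters and each other gene has 1. A cluster was taken where one of these genes was the only symbol that the array annotation gives it. They are 7 of the 61240 clusters tested, and the 6 genes are among 19260 that have a cluster of their own. Zebrafish embryos of the 5D wild-type strain were kept from 0.75 hours post-fertilization (hpf, the 2-cell stage) in 2 µM the organophosphate flame retardant TDCIPP (a chlorinated propyl ester of phosphoric acid) or in its vehicle, 0.1% dimethyl sulfoxide (DMSO). Embryos of each treatment were collected at 6 hpf (gastrula in unexposed embryos) or at 2 hpf (cleavage), which made 4 groups of 3 pools with 25 whole embryos in each pool. The study saw epiboly, the spreading of cells over the yolk, delayed at 6 hpf in most embryos at a somewhat lower TDCIPP concentration. It describes the toxicity of 2 µM as similar, so treatment and developmental stage cannot be told apart at 6 hpf. The RNA of each pool was hybridized to 2 Zebrafish Gene 1.0 ST arrays, 24 in all, and both arrays of a pool were averaged. The values below are the deposited log2 signals, on which a difference of 1 is a doubling.

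An egg carries RNA and protein that the mother made while the oocyte grew, and the first cell divisions run on this store. At the maternal-to-zygotic transition the embryo begins to transcribe its own genome and degrades much of the maternal RNA. The genes described here are known from the ovary. Zar1 and its paralog Zar1l are RNA-binding proteins of the oocyte and early embryo. Gdf9 and Bmp15 are growth factors of the transforming growth factor β family that the oocyte secretes and that act on the follicle cells around it. Zp2.2 and Zp3b are zona pellucida proteins, which make up the envelope of the egg.

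The time labels were checked with 10 genes of the gastrula mesendoderm and organizer, all of which rose between 2 and 6 hpf in both treatments (log2 differences of 1.80 to 7.36 in TDCIPP and 2.61 to 7.64 in DMSO embryos), among them tbxta, a T-box gene of the early mesoderm, by 5.50 in TDCIPP and 5.53 in DMSO embryos. Array medians lay at 4.472 to 4.543 at 6 hpf and at 4.323 to 4.461 at 2 hpf. All 7 oocyte-derived clusters had signals above these medians in every pool. The arrays report whole embryos without telling maternal from newly made RNA, and fewer cells with a transcript cannot be told apart from less RNA per cell. RMA, the algorithm behind these signals, gives all arrays about the same distribution, so each change is relative to the other clusters. Nothing in the sources used here says that samples of the same number shared a clutch.

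Between 2 and 6 hpf, 5 of the 7 clusters fell in TDCIPP embryos and the same 5 fell in DMSO embryos (limma, adjusted p under 0.1 over all clusters). Of all 61240 clusters, 19.5% fell and 20.7% rose in TDCIPP embryos, and 19.9% fell and 20.0% rose in DMSO embryos. All 7 oocyte-derived clusters had 1 symbol and a mean signal of at least 5. Of the 20806 clusters with 1 symbol, 6801 fell and 3772 rose in TDCIPP embryos, and 6913 fell and 3548 rose in DMSO embryos. Of the 25470 with a mean signal of at least 5, 10009 fell and 7786 rose in TDCIPP embryos, and 10049 fell and 7515 rose in DMSO embryos. With each array centred on its median, 8484 of all clusters rose and 17410 fell in TDCIPP embryos, against 12705 and 11954 without this step. In DMSO embryos the counts were 8844 and 17815 with centring and 12264 and 12178 without it. The falls reached more than 6-fold for zar1l and bmp15, were near 2-fold for gdf9 and zp3b, and were smaller for 1 cluster of zp2.2. The clusters not called as lower were those of zar1 and the second one of zp2.2. The median difference of the 7 clusters was -0.82 in TDCIPP and -1.03 in DMSO embryos, and that of all clusters was 0.03 in TDCIPP and 0.01 in DMSO embryos.

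**Figure D1:**
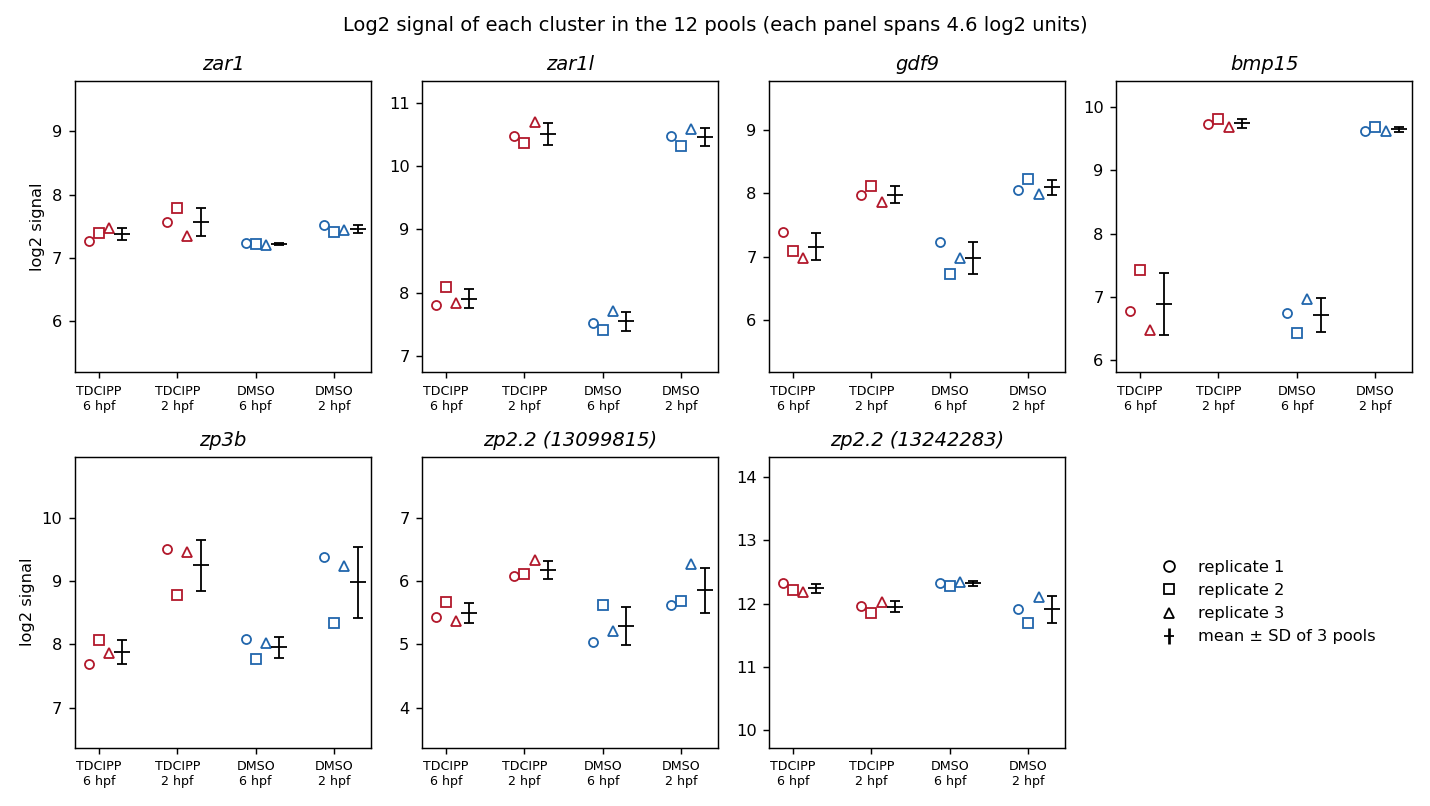
Log2 signal of the 7 oocyte-derived clusters in the 12 pools, with 1 panel per cluster, TDCIPP pools in red and DMSO pools in blue, marker shapes for replicate numbers, and the mean ± SD of 3 pools in black. All panels span the same range of log2 units, and their positions on the vertical axis differ. The panels of zar1l and bmp15 show the widest gaps between 6 and 2 hpf, and those of zar1 and of zp2.2 cluster 13242283 show narrow ones.

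The signal of zar1l, the paralog of zar1 (cluster 12969809), was 7.81, 8.08 and 7.83 in the TDCIPP pools at 6 hpf, against 10.47, 10.36 and 10.70 in the TDCIPP pools at 2 hpf. In DMSO embryos it was 7.52, 7.41 and 7.71 at 6 hpf, against 10.47, 10.32 and 10.59 at 2 hpf. Every 6 hpf pool thus lay more than 2 log2 units below every 2 hpf pool. The fall was 6.07-fold in TDCIPP embryos (log2 difference -2.60, standard error 0.12, limma adjusted p = 1.35e-09) and 7.55-fold in DMSO embryos (-2.92, standard error 0.12, adjusted p = 4.03e-10). Only 182 clusters (0.297% of those tested) had a difference as low or lower in TDCIPP embryos, this one included, and 106 (0.173%) did in DMSO embryos.

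The gene zar1, whose loss in mice arrests the embryo after fertilization, gave another picture. Its cluster (13102404) had signals of 7.28, 7.40 and 7.47 at 6 hpf, against 7.57, 7.79 and 7.35 at 2 hpf in TDCIPP embryos, and these pools overlapped. In DMSO embryos the signals were 7.23, 7.22 and 7.21 at 6 hpf, against 7.52, 7.41 and 7.44 at 2 hpf, without overlap. The differences were small, -0.19 in TDCIPP embryos (standard error 0.11, limma adjusted p = 0.216) and -0.24 in DMSO embryos (standard error 0.11, adjusted p = 0.119), and neither passed the threshold. The value in DMSO embryos lay close to it and passed under 8 of 19 alternative settings, with differences between -0.36 and -0.11 over all of them. In TDCIPP embryos the difference passed under 2 of 19, those with median centring (-0.33) and without replicate 3 at 2 hpf (-0.30).

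Both growth factor genes fell, bmp15 by far more than gdf9. The signal of bmp15 (cluster 13240040) was 6.77, 7.42 and 6.47 at 6 hpf, against 9.73, 9.82 and 9.68 at 2 hpf in TDCIPP embryos. In DMSO embryos it was 6.75, 6.43 and 6.96 at 6 hpf, against 9.62, 9.69 and 9.63 at 2 hpf. The pools of the time points were far apart, and those of 6 hpf were the more scattered, with SDs of 0.49 in TDCIPP and 0.27 in DMSO pools against 0.07 in TDCIPP and 0.04 in DMSO pools at 2 hpf. The fall was 7.22-fold in TDCIPP embryos (log2 difference -2.85, standard error 0.19, limma adjusted p = 4.61e-08) and 7.64-fold in DMSO embryos (-2.93, standard error 0.19, adjusted p = 3.34e-08). As low a difference or a lower one was found for 101 clusters in TDCIPP and for 100 in DMSO embryos.

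For gdf9 (cluster 13009596), the TDCIPP pools had signals of 7.39, 7.10 and 6.98 at 6 hpf, against 7.97, 8.12 and 7.86 at 2 hpf. The DMSO pools had 7.23, 6.73 and 6.98 at 6 hpf, against 8.06, 8.22 and 7.99 at 2 hpf. No 6 hpf pool reached the 2 hpf pools of its treatment. The fall was 1.77-fold in TDCIPP embryos (log2 difference -0.82, standard error 0.14, limma adjusted p = 0.000329) and 2.16-fold in DMSO embryos (-1.11, standard error 0.14, adjusted p = 2.16e-05). A difference this low or lower was common, at 8.83% of clusters in TDCIPP and 5.59% in DMSO embryos.

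Of the egg envelope genes, zp3b fell in both treatments, and its 2 hpf pools were unlike each other. Its signal (cluster 13078786) was 7.69, 8.07 and 7.86 at 6 hpf, against 9.50, 8.79 and 9.46 at 2 hpf in TDCIPP embryos. In DMSO embryos it was 8.08, 7.77 and 8.02 at 6 hpf, against 9.38, 8.34 and 9.24 at 2 hpf. In both treatments replicate 2 was the low pool at 2 hpf, yet it stayed above the 6 hpf pools. The fall was 2.59-fold in TDCIPP embryos (log2 difference -1.37, standard error 0.25, limma adjusted p = 0.000512) and 2.04-fold in DMSO embryos (-1.03, standard error 0.25, adjusted p = 0.00468). Without both 2 hpf pools of replicate 2, the differences were -1.61 in TDCIPP and -1.35 in DMSO embryos.

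The clusters of zp2.2 went opposite ways in the deposited values, though the rise of cluster 13242283 in TDCIPP embryos was not kept with another scaling. Cluster 13099815 had signals of 5.44, 5.68 and 5.37 at 6 hpf, against 6.08, 6.12 and 6.34 at 2 hpf in TDCIPP embryos. In DMSO embryos they were 5.04, 5.63 and 5.22 at 6 hpf, against 5.62, 5.68 and 6.26 at 2 hpf. The TDCIPP pools did not overlap between the times and the DMSO pools did by a small margin. The difference was -0.69 on the log2 scale in TDCIPP embryos (standard error 0.18, limma adjusted p = 0.00807) and -0.56 in DMSO embryos (standard error 0.18, adjusted p = 0.0258). The call in DMSO embryos was lost when only array 2 was used for every pool (-0.22, adjusted p = 0.573), without DMSO replicate 3 at 2 hpf (-0.36, adjusted p = 0.126) and without DMSO replicate 1 at 6 hpf (-0.43, adjusted p = 0.114).

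Cluster 13242283, the other one of zp2.2, had signals of 12.33, 12.21 and 12.19 at 6 hpf, against 11.96, 11.85 and 12.02 at 2 hpf in TDCIPP embryos. In DMSO embryos they were 12.33, 12.28 and 12.34 at 6 hpf, against 11.91, 11.69 and 12.11 at 2 hpf. The 6 hpf pools were the higher ones in both treatments. This cluster rose by 0.30 on the log2 scale in TDCIPP embryos (standard error 0.11, limma adjusted p = 0.0456) and by 0.41 in DMSO embryos (standard error 0.11, adjusted p = 0.00829). In TDCIPP embryos it was at 0.16 with median centring (limma adjusted p = 0.337) and at -0.04 after a second quantile normalization (adjusted p = 0.816). Neither value was called, so the rise there rests on the scaling. In DMSO embryos the second quantile normalization left 0.05 (limma adjusted p = 0.745). Array medians were 0.14 higher at 6 than at 2 hpf in TDCIPP and 0.13 higher in DMSO embryos, and relative to that shift this cluster differed by 0.16 in TDCIPP and 0.28 in DMSO embryos. In the RefSeq gene order of assembly GRCz12tu, zp2.2 stands beside zp2.3, with zp2.6, zp2.1 and zp2.5 close by. These genes are of the same family. Whether probes are shared among them was not checked, as sequences were not used, and which transcript each zp2.2 cluster reads is uncertain. Another cluster (13099824) carries the symbols of zp2.1, zp2.2, zp2.3, zp2.5 and zp2.6 together and was not called, with differences of 0.17 in TDCIPP and -0.18 in DMSO embryos.

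**Figure D2:**
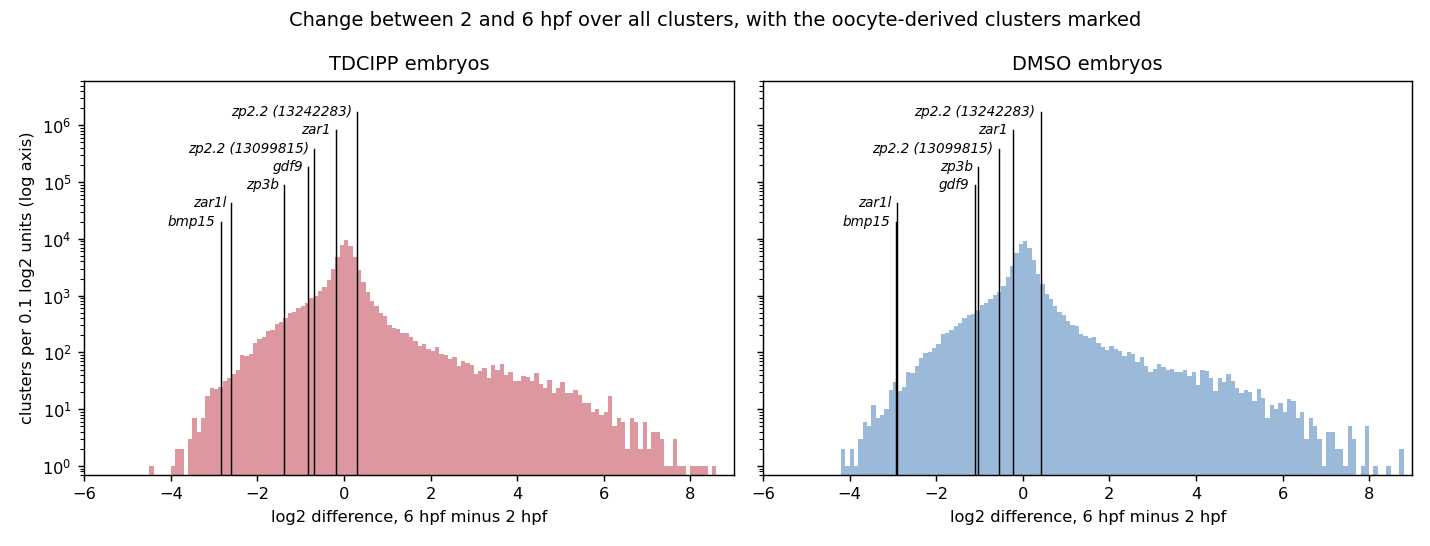
Number of clusters (log axis) by log2 difference between 6 and 2 hpf, in bins of 0.1, for TDCIPP embryos on the left and DMSO embryos on the right, with a line at each of the 7 oocyte-derived clusters. The clusters of bmp15 and zar1l stand in the lower tail in both panels, and that of zar1 stands near the centre.

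The changes of members of the same kind of protein were also set against each other pool by pool. The 5 pairs were chosen after their values were seen, so the differences are a description with no test. The change of zar1l minus that of zar1 was -2.41 in TDCIPP and -2.68 in DMSO embryos. The change of bmp15 minus that of gdf9 was -2.03 in TDCIPP and -1.82 in DMSO embryos. Within the egg envelope genes, the change of zp3b minus that of zp2.2 cluster 13099815 was smaller, at -0.69 in TDCIPP and -0.46 in DMSO embryos. Between the times, the pool values of this pair overlapped in DMSO embryos and not in TDCIPP embryos. Against zp2.2 cluster 13242283 the change of zp3b was -1.67 in TDCIPP and -1.43 in DMSO embryos, and the change of zp2.2 cluster 13099815 minus that of 13242283 was -0.98 in TDCIPP and -0.97 in DMSO embryos. Such a difference within an array does not show that either member was constant. The members of the first 2 pairs also began at unlike signals, which do not rank amounts of RNA because each cluster has its own probes. At 2 hpf the means were 10.51 in TDCIPP and 10.46 in DMSO pools for zar1l, against 7.57 and 7.46 for zar1. For bmp15 they were 9.74 in TDCIPP and 9.65 in DMSO pools, against 7.98 and 8.09 for gdf9. Whether a lower starting signal left less room to fall was not tested.

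Genes related to these by function were counted on the same test, from lists chosen with earlier results of these data known. They were read from clusters with 1 symbol, of which 6801 of 20806 fell in TDCIPP and 6913 in DMSO embryos. Of 19 other zona pellucida genes, 14 fell in TDCIPP and 12 in DMSO embryos and none rose, with a median log2 difference of -0.86 in TDCIPP and -0.58 in DMSO embryos. These counts were 14 and 12 with median centring and after a second quantile normalization, and 15 and 13 without both 2 hpf pools of replicate 2. Among the neighbours of zp2.2, zp2.1 fell by 0.57 in TDCIPP and 0.58 in DMSO embryos, while zp2.5 (-0.28 in TDCIPP and -0.13 in DMSO) and zp2.6 (-0.36 in TDCIPP and -0.35 in DMSO) were not called. The next gene of the family by symbol and not by position, zp2l1, fell by 0.71 in TDCIPP and 0.63 in DMSO embryos. Named after their values were seen, zp3d.2 (-2.33 in TDCIPP and -2.27 in DMSO embryos) and zpax2 (-2.31 in TDCIPP and -2.35 in DMSO embryos) fell most of the 19, whereas zp3a.2 was not called (0.00087 in TDCIPP and 0.10 in DMSO embryos).

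**Figure D3:**
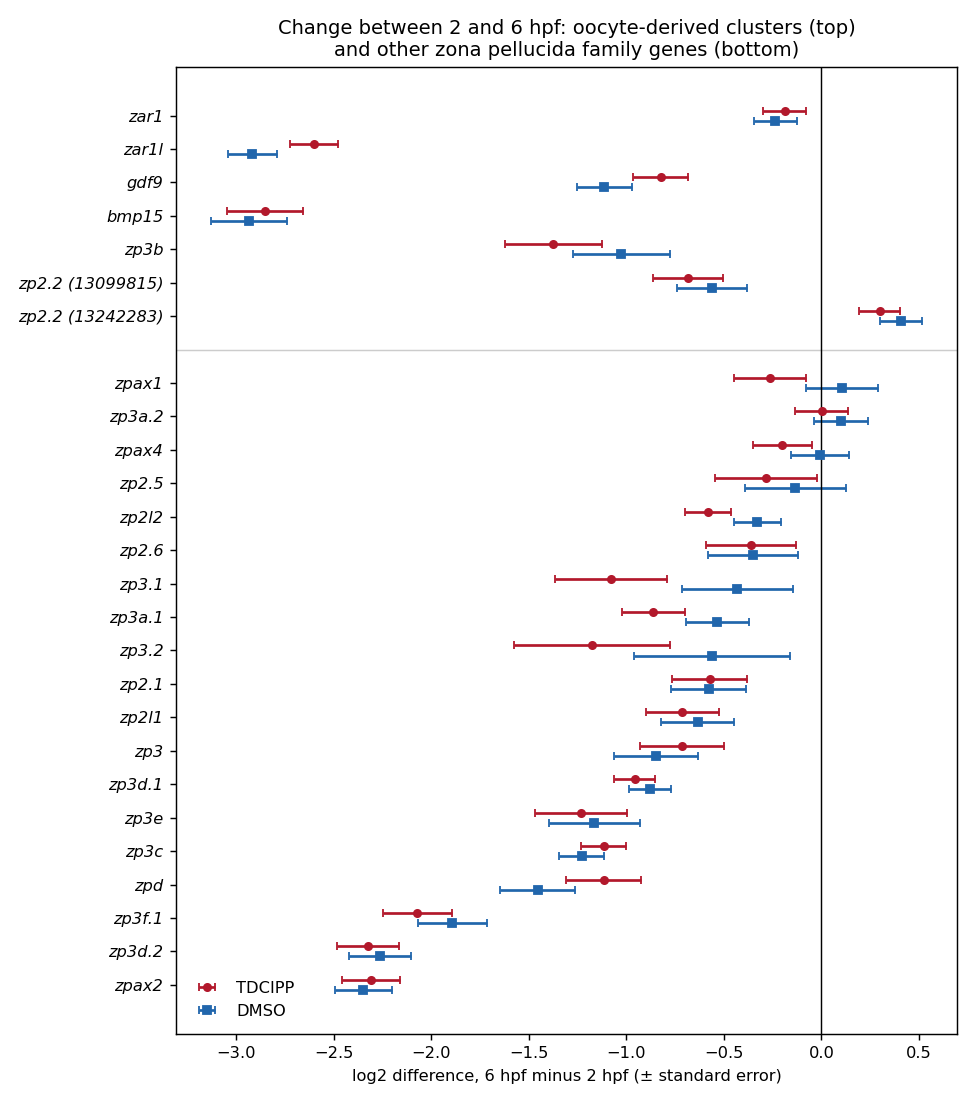
Log2 difference between 6 and 2 hpf ± standard error for the 7 oocyte-derived clusters (upper part) and 19 other zona pellucida genes (lower part), with TDCIPP embryos as red circles and DMSO embryos as blue squares. Most zona pellucida genes lie left of 0, as zp3b does, and zp3d.2 and zpax2 lie beyond -2 in both treatments.

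The transcription factors figla, nobox and lhx8a, which drive oocyte genes including those of the egg envelope in mammals, all fell. The differences were -1.02 in TDCIPP and -1.10 in DMSO embryos for figla, -1.07 in TDCIPP and -1.22 in DMSO embryos for nobox, and -1.51 in TDCIPP and -1.69 in DMSO embryos for lhx8a. Of the 6 measured factors on that list, 3 fell and 1 rose in each treatment. The riser was foxo3b, a forkhead factor gene, with 2.58 in TDCIPP and 2.42 in DMSO embryos. Of 14 RNA-binding and translation regulators, the kind of protein to which Zar1 and Zar1l belong, 10 fell in TDCIPP and 11 in DMSO embryos and 1 rose in each. This list held another pair of paralogs, whose products regulate the poly(A) tails of stored RNAs. Of these cpeb1b fell (-1.10 in TDCIPP and -1.25 in DMSO embryos), while cpeb1a was not called (0.05 in TDCIPP and 0.16 in DMSO embryos), changed sign with median centring in TDCIPP embryos and was called as higher after a second quantile normalization in DMSO embryos. The embryonic poly(A)-binding protein gene pabpc1l fell by 1.26 in TDCIPP and 1.25 in DMSO embryos, and ybx1, a cold shock domain gene, rose by 1.39 in TDCIPP and 1.15 in DMSO embryos.

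Among 14 receptor and Smad genes through which Gdf9 and Bmp15 can signal, both directions occurred. In TDCIPP embryos 5 rose and 3 fell, and in DMSO embryos 5 rose and 5 fell. Of the 20806 clusters with 1 symbol, 3772 rose and 6801 fell in TDCIPP embryos, and 3548 rose and 6913 fell in DMSO embryos. The receptor gene tgfbr1b rose by 2.16 in TDCIPP and 2.39 in DMSO embryos and bmpr2a by 0.44 in TDCIPP and 0.34 in DMSO embryos, and the call of bmpr2a was lost with median centring and with a second quantile normalization in both treatments. With median centring 3 rose and 3 fell in TDCIPP embryos, where acvr1ba, another receptor gene, lost its call too, and 4 rose and 5 fell in DMSO embryos. After a second quantile normalization 4 rose and 3 fell in TDCIPP embryos, and 4 rose and 4 fell in DMSO embryos. Neither bmpr2b (-0.11 in TDCIPP and -0.08 in DMSO) nor tgfbr1a (-0.24 in TDCIPP and -0.01 in DMSO) was called. Of 13 genes of oocyte maturation, egg activation and fertilization, 11 fell in each treatment. They included mos, the kinase gene of meiotic arrest (-1.71 in TDCIPP and -1.86 in DMSO embryos), and the cyclin genes ccnb1 (-0.36 in TDCIPP and -0.31 in DMSO embryos) and ccnb2 (-0.67 in TDCIPP and -0.69 in DMSO embryos), with wee2, a kinase gene that holds back cyclin-dependent kinase (-0.83 in TDCIPP and -0.69 in DMSO embryos). Of 6 germ cell genes, 4 fell in each treatment, among them the RNA regulator genes nanos3 (-1.62 in TDCIPP and -1.42 in DMSO embryos) and dnd1 (-1.07 in TDCIPP and -1.32 in DMSO embryos) and the Tudor domain gene tdrd7a (-1.34 in TDCIPP and -1.31 in DMSO embryos), and ddx4, the gene of the Vasa helicase, was not called (-0.13 in TDCIPP and -0.12 in DMSO embryos).

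**Figure D4:**
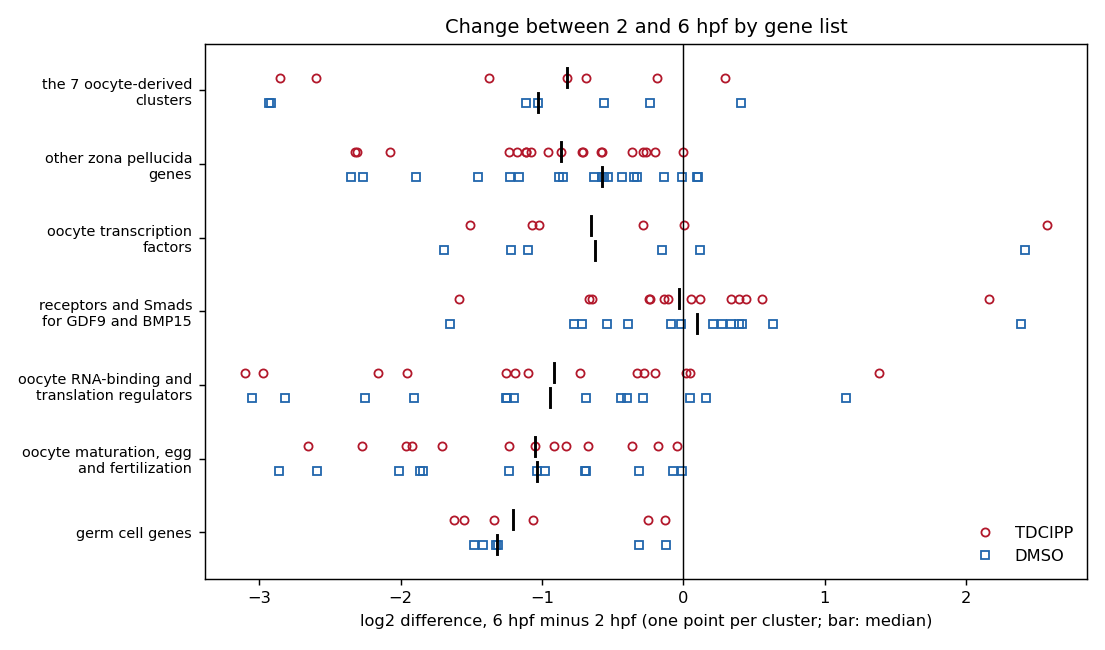
Log2 difference between 6 and 2 hpf for the 7 oocyte-derived clusters and 6 gene lists, with 1 point per cluster, TDCIPP embryos as red circles, DMSO embryos as blue squares and a black bar at each median. The oocyte-derived clusters spread over more than 3 log2 units in both treatments, and the median of the receptors and Smads lies near 0.

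Follicle cells, which could be carried over with eggs, were checked with 11 marker genes. In both treatments 2 of them fell and none rose, the steroid enzyme genes cyp17a1 and cyp11a1.1, named after their values were seen. Of the 20806 clusters with 1 symbol, 6801 fell in TDCIPP and 6913 in DMSO embryos. With median centring 4 markers fell in each treatment, where 17410 of all 61240 clusters fell in TDCIPP and 17815 in DMSO embryos. The log2 of the summed signal of the list ranged from 9.22 to 9.44 in TDCIPP pools and from 9.14 to 9.42 in DMSO pools at 6 hpf, against 9.86 to 10.29 in TDCIPP pools and 10.0 to 10.21 in DMSO pools at 2 hpf. This sum of unlogged signals rests mostly on the same 2 genes. Their means at 2 hpf were 9.17 in TDCIPP and 9.04 in DMSO pools for cyp11a1.1, and 8.49 in TDCIPP and 8.53 in DMSO pools for cyp17a1. The other 9 were not called. Of these, amh (4.28 in TDCIPP and 4.05 in DMSO pools at 6 hpf, 4.07 in TDCIPP and 4.11 in DMSO pools at 2 hpf), foxl2a, fshr, star and inha had mean signals below the array medians in all 4 groups, cyp19a1a lay below them in 3 groups and within their range in DMSO pools at 2 hpf (4.23 in TDCIPP and 4.24 in DMSO pools at 6 hpf, 4.30 in TDCIPP and 4.41 in DMSO pools at 2 hpf), and foxl2b, lhcgr and gsdf lay above them in all 4, gsdf with means of 5.42 to 5.59. The part of follicle cells in the falls of the oocyte-derived clusters was not tested.

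The genes whose course over the 12 pools was most like that of the oocyte-derived clusters were sought among 19254 genes, by the root-mean-square difference of signals centred on their means, and are given as a description. Nearest to the mean of the 6 genes, zp2.2 entering with cluster 13242283, was lrp13, with a root-mean-square difference of 0.058 and changes of -1.33 in TDCIPP and -1.32 in DMSO embryos. Next were atl2 (0.0608), atp6v0a2b (0.0643), zfand4 (0.0681) and wdtc1 (0.0685). The mean joins clusters with unlike changes and need not be the course of any of them. For zp3b the nearest gene was another egg envelope gene, zp3e (0.146), followed by btc (0.175). The nearest to zar1l were lipg (0.108) and atp6v0d1 (0.115), to bmp15 zgc:56231 (0.125) and si:ch211-266i6.3 (0.134), and to gdf9 rskrb (0.0996) and tctn1 (0.103). For zar1 they were chchd3a (0.0744) and rundc3b (0.0747), for zp2.2 cluster 13242283 cad (0.057) and cct8 (0.059), and for zp2.2 cluster 13099815 arl2 (0.144) and isca2 (0.156). Among the 7 clusters themselves, bmp15 and zar1l were the most alike (0.216), and bmp15 and zp2.2 cluster 13242283 the least (1.65). The points are pools of 4 groups, so the contrast between the time points dominates this measure.

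TDCIPP and DMSO embryos were compared within each time to learn whether exposure altered these transcripts before and after the transition. No oocyte-derived cluster differed at an adjusted p under 0.1 at either time, and neither did any other cluster, so that 0% of the 61240 were called (limma on pool means). The study, by ANOVA, reported transcripts that passed this threshold at 6 hpf, with szl changed the most, and none at 2 hpf. The smallest adjusted p was 0.245 at 6 hpf and 0.288 at 2 hpf, and unadjusted p-values under 0.05 were found for 3356 clusters at 6 hpf and 1697 at 2 hpf, of which 1 at 6 hpf (zar1l) and 0 at 2 hpf were oocyte-derived clusters. With the pool as a random block, limma called 52 clusters at 6 hpf and 0 at 2 hpf, and the methods' ANOVA on arrays called 68 at 6 hpf and 0 at 2 hpf, with no oocyte-derived cluster among them. Both settings used single arrays, and this ANOVA took both arrays of a pool as separate samples although they share the same RNA.

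At 6 hpf the largest difference of the 7 clusters was that of zar1l, whose 3 TDCIPP pools (7.81, 8.08 and 7.83) all lay above the 3 DMSO pools (7.52, 7.41 and 7.71). The log2 difference was 0.36 (95% interval 0.08 to 0.64, unadjusted p = 0.0176 and adjusted p = 0.837 by limma), and it lay between 0.27 and 0.44 under 18 alternatives, with adjusted p-values of 0.609 to 0.999. The 3 TDCIPP pools of zar1 lay above the 3 DMSO pools as well, by 0.16 (95% interval -0.06 to 0.38, adjusted p = 0.948). With array 1 alone the difference of zar1 was 0.29, and with array 2 alone it was 0.03. Both arrays of a pool differed at 6 hpf by up to 0.74 for zar1l (TDCIPP) and 0.33 for zar1 (DMSO). The clusters of zar1l and zar1 were 2 of the 7, where 5.46% of all clusters had every TDCIPP pool above and 5.50% every TDCIPP pool below the DMSO pools. With 3 pools on each side, the smallest two-sided p of an exact permutation test is 0.1. All 7 listed genes of the enveloping layer, the outer cell layer of the blastula, stood on the same side at 6 hpf, each with a higher mean in TDCIPP embryos (0.11 to 0.51, none called), and the log2 of their summed signal was 13.36 to 13.63 in TDCIPP and 13.12 to 13.27 in DMSO pools. Of the 10 gastrula genes, 4 had a higher and 6 a lower mean in TDCIPP embryos (-0.85 to 0.65). Of 5 yolk syncytial layer genes 4 were higher and 1 lower (-0.06 to 0.20), and of 11 follicle cell markers 8 were higher and 3 lower (-0.07 to 0.23). None of these was called. The parts of the enveloping layer and of the delay in epiboly in the difference of zar1l were not tested.

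The other clusters had small differences at 6 hpf, with intervals of unlike width that all reached across 0. For bmp15 the difference was 0.18 (95% interval -0.36 to 0.71, adjusted p = 0.980), and its TDCIPP replicate 2 (7.42) was the highest of the 6 pools. Without that pool the difference was -0.09. For gdf9 the difference was 0.18 (-0.18 to 0.53), for zp3b -0.08 (-0.39 to 0.22), for zp2.2 cluster 13099815 0.20 (-0.17 to 0.56) and for zp2.2 cluster 13242283 -0.07 (-0.29 to 0.14). In all, 5 of the 7 clusters had a higher and 2 a lower mean in TDCIPP embryos, with a median of 0.18, against -0.00073 over all clusters.

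At 2 hpf, 6 of the 7 clusters had a higher and 1 a lower mean in TDCIPP embryos, with a median difference of 0.10, against -0.0042 over all clusters. The pools of the treatments overlapped for each of the 7. Over all clusters, 3.10% had every TDCIPP pool above and 4.29% every TDCIPP pool below the DMSO pools. The differences ranged from -0.11 for gdf9 (95% interval -0.36 to 0.13) to 0.32 for zp2.2 cluster 13099815 (-0.07 to 0.71, unadjusted p = 0.092 and adjusted p = 1 by limma). With array 1 alone the difference of zp2.2 cluster 13099815 was 0.14, and with array 2 alone it was 0.51. For zp3b the difference of 0.27 had the widest interval (-0.38 to 0.91), and without DMSO replicate 2, its lowest pool, the difference was -0.06. The differences of zar1 (0.11), bmp15 (0.10), zar1l (0.05) and zp2.2 cluster 13242283 (0.04) were smaller.

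**Figure D5:**
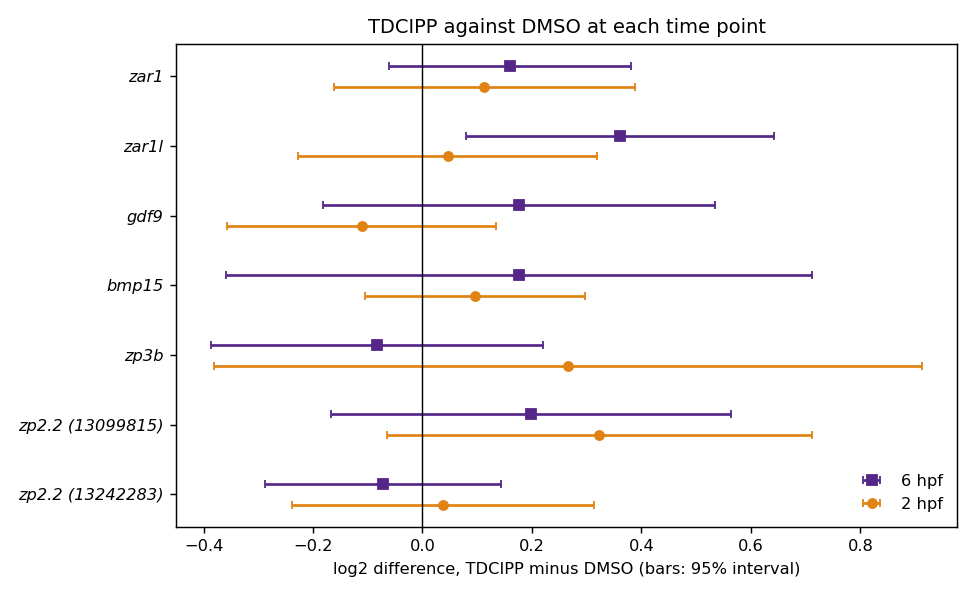
Log2 difference between TDCIPP and DMSO embryos with its 95% interval for the 7 oocyte-derived clusters at 6 hpf (purple squares) and at 2 hpf (orange circles). The interval of zar1l at 6 hpf, 0.08 to 0.64, is the one that does not reach 0, and no difference passed the adjusted threshold.

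Whether the TDCIPP difference itself changed between the time points was tested with all 12 pools. No oocyte-derived cluster passed, nor did any of the 61240 (0%, limma, smallest adjusted p = 0.14, 2645 with an unadjusted p under 0.05, 0 of them oocyte-derived). The largest values of the 7 were -0.35 for zp3b (95% interval -1.10 to 0.41), 0.31 for zar1l (-0.06 to 0.69, unadjusted p = 0.0962) and 0.29 for gdf9 (-0.14 to 0.72), with an adjusted p of 1.00 each. The falls of zar1l (-2.60 in TDCIPP and -2.92 in DMSO embryos) and of gdf9 (-0.82 in TDCIPP and -1.11 in DMSO embryos) were thus not shown to differ between the treatments. Among the related genes, no member of the 6 lists plotted with the oocyte-derived clusters was called for a TDCIPP difference at either time or for its change.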

How the data were processed

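Values came from the deposited series table of 24 one-color arrays. The authors hybridized the RNA of each pool to duplicate arrays and made gene-level log2 signals with RMA (background correction, quantile normalization, probe summarization) in Expression Console, whose version is not given in the sources used here. No detection calls were used, and the number of pools, 3 in each group, limits the precision. Of 75212 rows, 13972 with IDs below the first with a gene were left out, and 61240 clusters were tested. The probe annotation gave 1 symbol to 20806, several to 855 and none to 39579, and gene IDs tied 20323 of those with 1 symbol to a current list.

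Both arrays of a pool were averaged, and pools were compared with limma 3.58.1 under R 4.3.3 (lmFit, then eBayes, with two-sided p-values adjusted over all clusters by Benjamini-Hochberg and called under 0.1). TDCIPP was compared with DMSO within each time point, as in the study's methods, and changes over time used all 12 pools. Time contrasts and treatment contrasts share pools. Pools came from separate beakers, and whether replicate numbers pair them was checked by correlating deviations from group means.

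The members and lists were chosen with earlier results of these data known. Named by rule were all clusters of the 6 genes, the first 4 measured genes of the zona pellucida family and of each list plotted beside it, and the nearest genes by root-mean-square difference. Other zona pellucida genes, acvr1ba, the markers of other cells and the pairs of members set against each other were chosen to be named after their values were seen. Genes with several clusters were read from the one with the highest mean. The other settings tried were the replicate number as a block, a random block for the pool, either array alone, the methods' ANOVA on arrays, eBayes with trend and robust options, median centring, quantile normalization again, a minimum mean signal of 5, all rows, clusters with 1 symbol, other samples in the fit, a threshold of 0.05 and leaving out each pool. Leaving out both 2 hpf pools of replicate 2 was chosen after seeing the data. Sequences were not used here. Figures were drawn with matplotlib 3.10.9 in Python 3.11.15.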

Additional observations from a re-analysis of the deposited data

How the results depend on the processing

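The falls of zar1l, bmp15, gdf9 and zp3b between 2 and 6 hpf passed the threshold under all 19 alternatives in both treatments, and that of zp2.2 cluster 13099815 did in TDCIPP embryos. The counts of oocyte-derived clusters called stayed within 1.5 times the reported ones under every alternative. The rise of zp2.2 cluster 13242283 was called under 14 alternatives in TDCIPP and 18 in DMSO embryos, and in TDCIPP embryos it was -0.036 after a second quantile normalization. With clusters of 1 symbol only, 20806 clusters were tested, and 10573 (3772 higher, 6801 lower) were called in TDCIPP and 10461 (3548 higher, 6913 lower) in DMSO embryos. For TDCIPP against DMSO at 6 hpf, where 0 clusters were called, the pool as a random block gave 52, array 1 alone 1, the methods' ANOVA 68, trend and robust options 14, the 2 hpf samples added to the fit 17, and leaving out 1 pool 0 to 2 (2 without DMSO replicate 3). For the change of the TDCIPP difference the random block gave 8, ANOVA 5, trend and robust options 2, and leaving out 1 pool 0 to 3 (3 without TDCIPP 6 hpf replicate 2). The ANOVA took both arrays of a pool as separate samples, although they share the same RNA. The random block used single arrays too, with a correlation within pools of 0.0603 at 6 hpf. The part of this in the counts was not tested, and none of the counts held an oocyte-derived cluster.

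Signs of uncalled differences were less stable. Leaving out 1 pool, the TDCIPP difference at 2 hpf ranged from -0.049 to 0.123 for zar1l, -0.0688 to 0.141 for zp2.2 cluster 13242283 and -0.0579 to 0.497 for zp3b, and at 6 hpf from -0.0897 to 0.385 for bmp15 and -0.18 to 0.0077 for zp3b. Its change ranged from -0.19 to 0.289 for bmp15, -0.063 to 0.156 for zar1 and -0.33 to 0.041 for zp2.2 cluster 13099815. That change was 0.216 for zp2.2 cluster 13099815 with array 1 alone and -0.039 for zar1 with array 2 alone. Without both 2 hpf pools of replicate 2, the 2 hpf difference was -0.0198 for zar1 and -0.022 for zp2.2 cluster 13242283.

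Deviations of pools with the same number correlated at 0.089 to 0.183 at 6 hpf and 0.052 to 0.249 at 2 hpf between the treatments, and those of different numbers at -0.13 to 0.01 at 6 hpf and -0.22 to 0.081 at 2 hpf. Pools correlated best with their own number in 6 of 6 cases at 6 hpf and 5 of 6 at 2 hpf, a hint of pairing from the data and not from the design. Between the times, pools did so in 4 of 6 cases in DMSO and 0 of 6 in TDCIPP embryos. Where both time and treatment differed, they did so in 0 of 6 cases for either pair of groups. The cases share pools and are not independent. Because the labels state no pairing and not every correlation passed 0.1, the pairing was not used in the reported fits. A replicate block called 24805 clusters over time in TDCIPP and 24636 in DMSO embryos and 0 in the other comparisons, with 6, 6 and 0 oocyte-derived clusters.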

Other observations

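The low signal of zp3b in replicate 2 at 2 hpf, noticed in the values above, was looked for in the other zona pellucida genes. At 2 hpf, zp3b in replicate 2 lay 0.69 below the mean of the other pools of its group in TDCIPP and 0.97 below it in DMSO embryos, and zp3e lay 0.58 below in TDCIPP and 1.00 below in DMSO embryos. Replicate 2 was the lowest pool in both treatments for 9 of the 19 other zona pellucida genes (47.4%) and for 3 of the 7 oocyte-derived clusters (zar1l, zp3b and zp2.2 cluster 13242283), against 11.5% of all clusters. The widest gap was that of zp3.2 in DMSO embryos, at -1.82, with -0.38 in TDCIPP embryos, where replicate 2 was not the lowest pool. Not all egg envelope genes shared it: zpd lay 0.76 above in TDCIPP and 0.28 above in DMSO embryos. At 6 hpf replicate 2 was lowest in both treatments for 4 of the 19 (21.1%) and for 0 of the 7, against 12.7% of all clusters. The count was prompted by zp3b, which is itself among the 3 of the 7, and genes read in the same pools are not independent. These genes were chosen after their values were seen, and why the pools differ was not tested.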
